A study of Mus musculus with 22 samples.

Results

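MicroRNA entries with a number of 3000 or more are those added late to the miRNA catalogue, and 88 of them, detected by the rule given next, were measured in primary mouse hepatocytes. They were chosen as entries of the array whose mouse miR name carries such a number and which the scanner software called detected on at least 3 of 22 arrays. Of 322 such entries on the array, 99 passed that detection rule, and 11 (miR-6366, miR-5109, miR-3963, miR-6243, miR-5105, miR-5126, miR-5097, miR-5100, miR-6378, miR-6351 and miR-6418-5p) were left out by name. The 88 were therefore part of 349 entries tested, of 1247 miRNA entries in all, and they are set against 211 detected entries numbered under 1000. Detection was used in the choice, so the number of arrays on which a member was detected is a description only.

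MicroRNAs are short RNAs that guide Argonaute proteins to messenger RNAs, mainly through the seed, the stretch of bases near the 5′ end that pairs with the target. Catalogue numbers follow the order of discovery. Low numbers went to RNAs found by cloning and conservation, such as the liver miRNA miR-122, and high numbers mostly to RNAs found later by deep sequencing, many of them within other genes.

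The cells came from C57Bl6 mice and spent 24 h or 48 h with cyclosporin A (CsA) or with the solvent alone, 0.5% DMSO. CsA blocks calcineurin, is given to transplant patients and can impair bile flow. Total RNA was hybridised to Agilent single-colour arrays, 1 sample an array. The groups were DMSO at 24 h (5 arrays), 10 µM at 24 h (3), 50 µM at 24 h (2), DMSO at 48 h (6), 10 µM at 48 h (3) and 50 µM at 48 h (3). Each sample also carries an experiment number from 1 to 3. The DMSO arrays of each time come from these 3 experiments, and the arrays at 50 µM and 24 h from 2 and 3 alone. A dose tag reads IC20-24h for 50 µM and IC20-48h for 10 µM at both times, and DMSO arrays carry either tag. All cells, controls included, were in medium with 10% serum and received DMSO, and the labels call the samples biological replicates without saying how many mice each one came from. One field of the labels speaks of HepG2 cells and all others of primary mouse hepatocytes. All 5 hepatocyte markers, miR-122 among them, were detected on every array. Of the leukocyte, endothelial, mesenchymal, bile duct and erythroid markers, 1 of 5, 1 of 2, 1 of 5, 0 of 5 and 0 of 2 were detected on any array. The 3 detected there were miR-155-5p, miR-126-3p and miR-145a-5p.

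The sample names exist in 2 forms that do not match, and every dose comparison below rests on which is used. The deposited value table could be rebuilt exactly from the array files, and its columns carried the same name as the array they held in 6 of 22 cases. The other 16 held an array of the same time and experiment number but of the other dose (8 CsA arrays) or of the other set of solvent controls (8 DMSO arrays). Groups here follow the column names, a choice made with earlier results of these data known. Of the 3 arrays named 50 µM at 48 h by the columns, 1 is filed as 50 µM and 2 as 10 µM, and both arrays named 50 µM at 24 h are filed as 10 µM. Results under the file names are given beside the main ones. Which naming is right cannot be told from the sources used here.

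Mature sequences from RefSeq (GRCm38.p6) were matched by name for 68 of the 88 members. The miR-3473 forms, which were among the members that moved, were the closest relatives in this set. They are printed 5′ to 3′, with the seed, bases 2 to 8, in capitals.
miR-3473a: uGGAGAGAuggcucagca
miR-3473b: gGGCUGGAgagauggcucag
miR-3473e: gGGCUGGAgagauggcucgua
miR-5128: cAAUUGGGgcuggcgagauggcu
miR-3473b and miR-3473e share a seed and an 18-base run. The 3 miR-3473 forms share the 14-base run UGGAGAGAUGGCUC, which starts at base 1 of miR-3473a and at base 5 of the other two. miR-5128 holds a part of it, GAGAUGGCU, from base 15, without the final C of the run. That 9-base run lies in 4 of 1679 mature names in the table, all of them members. Arrays read these 4 RNAs with separate probes, and whether a probe also bound a relative was not tested.

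A second set is shown because it holds members cut from the same hairpin, with the call differing between forms in miR-3102 and not in miR-5132. The 4 miR-3102 forms come from 1 hairpin within Arhgef17, and the 2 miR-5132 arms come from 1 hairpin within Irak1, a kinase gene of interleukin and Toll-like receptor signalling.
miR-3102-5p: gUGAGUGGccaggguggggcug
miR-3102-5p.2-5p: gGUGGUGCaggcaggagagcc
miR-3102-3p.2-3p: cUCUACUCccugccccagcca
miR-3102-3p: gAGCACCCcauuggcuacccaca
miR-5132-5p: gCGUGGGGugguggacucagg
miR-5132-3p: cUGAUGUUccccaucccgcag
On the minus strand of chromosome 7, miR-3102-5p lies at chr7:100882388-100882409 and miR-3102-3p at chr7:100882307-100882329, with the other two forms between them. The miR-5132 arms lie on the minus strand of the X chromosome, the 5p arm at chrX:74023571-74023591 and the 3p arm at chrX:74023534-74023554.

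Other members with large or early changes had no shared seed among the members.
miR-5622-3p: cUUAGCUGgguagugguggugc
miR-5121: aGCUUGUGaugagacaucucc
miR-6391: uGAGGCACgggaggacaaugu
miR-6401: uUACACUCcaguggugucgggu
miR-5119: cAUCUCAUccuggggcugg
miR-5116: uUUGAUAGgaaccccgccuga
miR-5622-3p, at chr2:152865105-152865126 on the plus strand, lies within Tpx2, a spindle assembly gene. miR-5121, at chr7:45126925-45126945 on the minus strand, lies within the span of both the ribosomal protein gene Rpl13a and the small nucleolar RNA gene Snord33. miR-6391 lies within the transporter gene Abcc4, at chr14:118592376-118592396 on the minus strand. miR-5119 lies within Cdk12, a kinase of transcription elongation, at chr11:98262638-98262656 on the plus strand, and miR-5116 within Mmgt1 at chrX:56587892-56587912 on the minus strand. miR-6401, at chr7:139779085-139779106 on the plus strand, overlapped no other gene of the annotation table.

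Over the 68 matched members, 50 overlapped the span of a protein-coding gene (73.5%), against 89 of 169 matched entries numbered under 1000 (52.7%). Overlap was taken from position alone, here and for the genes named above. The strand of the gene was not compared, so these genes are not shown to be the source of the RNA. Median length was 22 bases in both classes, from 18 to 26 in the members. GC content was higher in the members, with a median of 61.4% against 50.0%, and it ran from 36.4% in miR-6238 to 94.7% in miR-6538. Only 2 seeds were shared between members: that of miR-3473b with miR-3473e and that of miR-6368 with miR-6405, which also share a 13-base run. miR-6394 has the seed of miR-125a-5p and miR-125b-5p, widely expressed miRNAs, and miR-6415 that of miR-208a-5p, one arm of a heart muscle miRNA. miR-6239 has the seed of miR-6351, one of the entries left out.

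Levels are log2 of the scanner's processed signal after division by the array's 75th percentile, so 0 is the brightness of that percentile. The floor of the scale was -4.44. A probe's brightness depends on its own binding as well as on the RNA, so levels are compared between arrays for 1 member and not taken as molar amounts. Of the 88 members, 40 were detected and 37 were well above background on all 22 arrays, 2 were well above background on none, and 7 were at the floor on every array. No member (0) was detected at 50 µM and 48 h alone, and 86 were detected on at least 1 DMSO array. The 3 arrays at 50 µM and 48 h still counted toward the detection rule, and 53, 83 and 88 members were detected on them. On the DMSO arrays of that time 50 to 81 were detected. Dim members may thus have passed the rule in part through the arrays that were later compared. Those next to the detection rule were dim, and their highest single value was -3.61, in miR-6345, which was detected on 2 arrays. The 6 members detected on exactly 3 arrays (miR-3075-5p, miR-3094-3p, miR-3107-5p, miR-3474, miR-3572-5p and miR-6388) had no value above -4.18, and the 7 entries detected on exactly 2 arrays (miR-3061-5p, miR-3076-5p, miR-3110-3p, miR-5118, miR-5627-3p, miR-6345 and miR-6395) had mean levels from -4.44 to -4.38.

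The 10 members with the highest mean signal were miR-3960, miR-3968, miR-3473b, miR-6538, miR-3102-5p, miR-5622-3p, miR-3096b-3p, miR-3082-5p, miR-6368 and miR-5112. miR-3960 averaged 2.67 ± 0.47 (SD over 22 arrays) on this log2 scale and carried 1.76% of the summed gene signal of an array on average. miR-3968 averaged 1.57 ± 0.93 and miR-5112, the tenth, -1.10 ± 0.51. The signal thus fell off quickly within the class. miR-3082-5p and miR-5121 were the least steady of those above background everywhere, at -0.42 ± 1.00 and -2.10 ± 1.21. The members together held 4.78% to 8.19% of the summed signal of an array. All 778 entries numbered under 1000 on the array, detected or not, held 21.2% to 39.0%. The 11 entries left out, 9 of them well above background on all 22 arrays, held 43.6% to 64.7%.

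**Figure D1:**
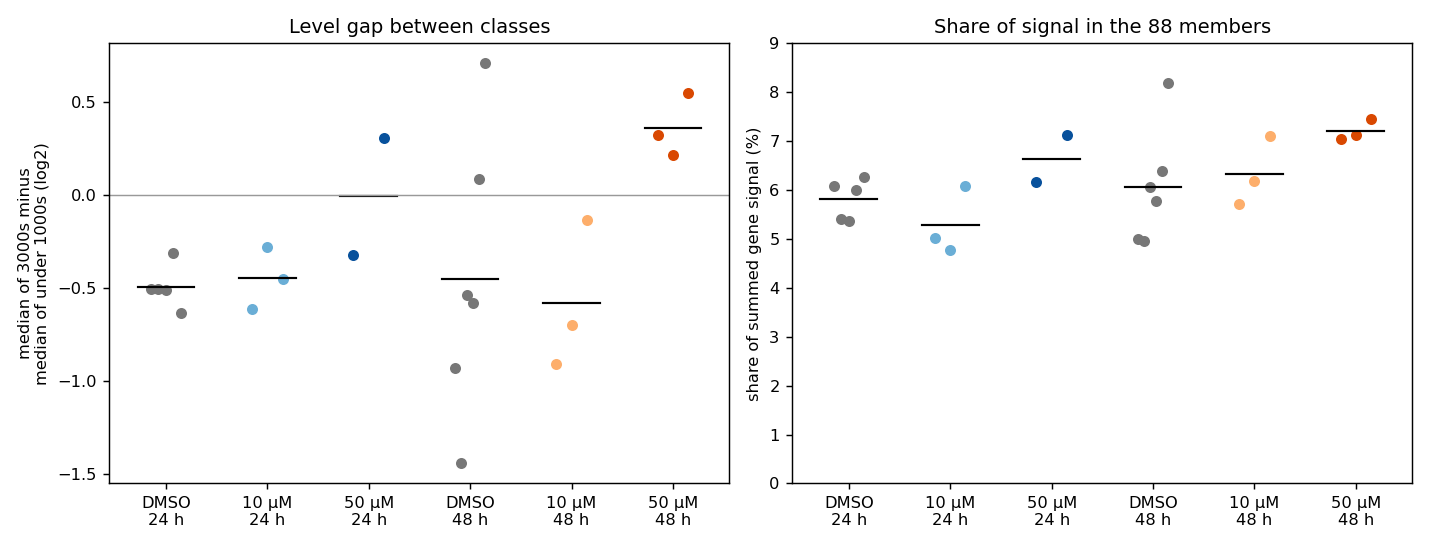
Left, median log2 level of the 37 members well above background on all 22 arrays minus that of the 87 low-numbered entries passing the same filter, 1 point per array, by treatment group; right, percent of summed gene signal in the 88 members. Bars are group means; the 3 arrays at 50 µM and 48 h lie above 0 on the left (0.21 to 0.55), and 1 DMSO array at 48 h lies above them on both sides (0.71 and 8.19%).

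The level gap between the classes differed by group. Among entries well above background on all 22 arrays, the median member was 0.33 ± 0.52 below the median low-numbered entry (SD over 22 arrays, a gap of -0.33). At 50 µM and 48 h the gap was 0.36 ± 0.17 (n = 3) in the members' favour, against -0.45 ± 0.76 (n = 6) in DMSO at 48 h and -0.58 ± 0.40 (n = 3) at 10 µM and 48 h. The DMSO arrays at 48 h overlapped the 50 µM arrays, because DMSO replicate 6 had the highest gap of all arrays, 0.71. At 24 h the gap was -0.49 ± 0.11 (n = 5) in DMSO and -0.32 and 0.31 on the 2 arrays at 50 µM.

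At 50 µM and 48 h, 35 of the 88 members were higher than in DMSO and 0 were lower (limma, Benjamini-Hochberg adjusted p under 0.05 over 349 entries). Higher calls made up 24.6% of all entries tested and 39.8% of the members, and lower calls 8.6% of all entries. The low-numbered entries split both ways, with 31 of 211 higher and 28 lower. The 31 entries numbered from 1000 to under 3000 had 14 higher and 0 lower, with a median change of 0.67. The low-numbered split depends on the scale. With the 75th percentile taken over all probes, 9 of them were higher and 55 lower, against 19 higher and 2 lower members. With quantile normalisation the counts were 17 and 43 against 28 and 0, with normexp 14 and 59 against 26 and 2, with the total gene signal 20 and 40 against 33 and 1, and in the authors' deposited values 11 and 51 against 22 and 2. The members' median change was 0.40 on the log2 scale, beside 0.03 over all 349 entries and 0.00 over the low-numbered ones. It moved with the scale, from 0.00 with scaling over all probes (39 members up in value and 29 down), 0.03 with quantile normalisation and 0.10 with normexp to 0.83 in the authors' deposited values and 0.95 with the total gene signal.

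Grouped by the array file names instead, no member (0) was called at 50 µM and 48 h, and none (0) with both doses pooled, a grouping that is the same under either naming. The median change of the members was then 0.09 and 0.15. At 10 µM and 48 h the file names gave 5 members higher, named here after their values were seen: miR-6391, miR-5132-3p, miR-3099-3p, miR-3070b-3p and miR-5116. They were 5 of 88 members, where 5.44% of all entries were higher. Their log2 changes were 0.66 to 1.15, with an adjusted p of 0.0474 for each in limma.

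**Figure D2:**
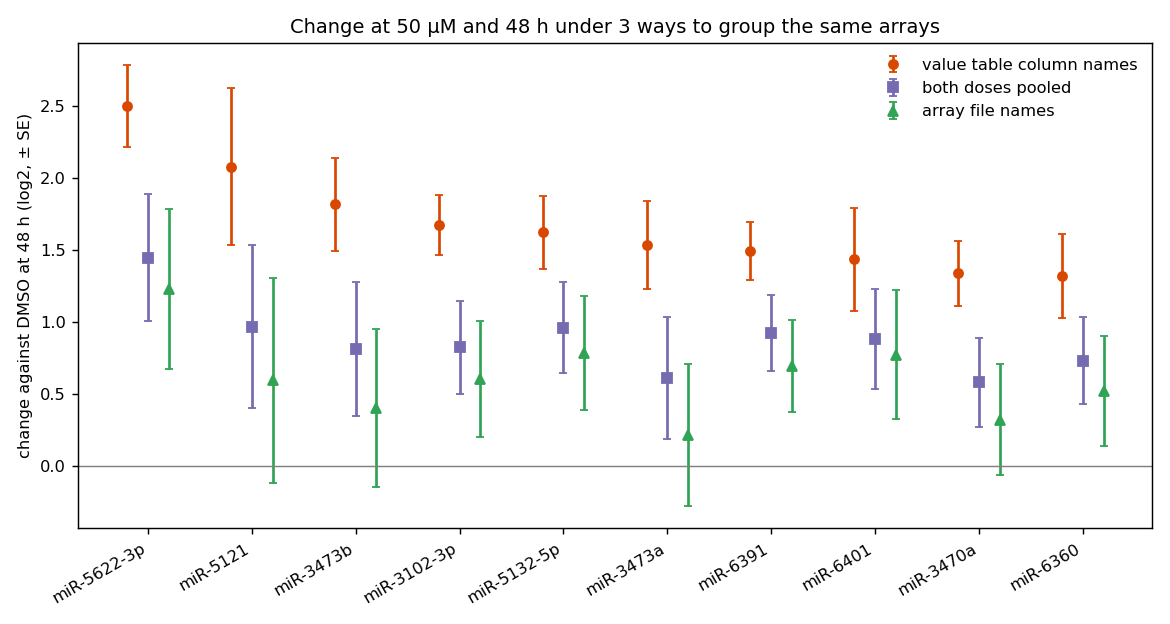
Log2 change against DMSO at 48 h (± SE from limma) of the 10 members with the largest rise, under the column names of the value table (3 arrays at 50 µM against 6), with both doses pooled (6 against 6) and under the array file names (3 against 6). The column names give values from 1.32 to 2.50, and the other groupings give smaller positive values that were not called.

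Of the 51 members not well above background on every array, 20 were higher (39.2%), against 46 of all 190 such entries (24.2%). Of the 37 members well above background on all 22 arrays, 15 were higher (40.5%) and 0 lower, with a median change of 0.67 and 33 positive values. Among all 159 such entries 25.2% were called higher, and 17 entries lower. The 87 low-numbered entries with the same filter had 14 higher and 15 lower and a median of -0.21. Of the 35 called members, 17 were well above background on all DMSO arrays at 48 h, 15 on some and 3 on none, 31 changed more than 1.5-fold and 21 more than 2-fold. Where DMSO arrays lay at the floor, the sizes below depend on where the floor is set and are neither bounds nor exact folds.

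**Figure D3:**
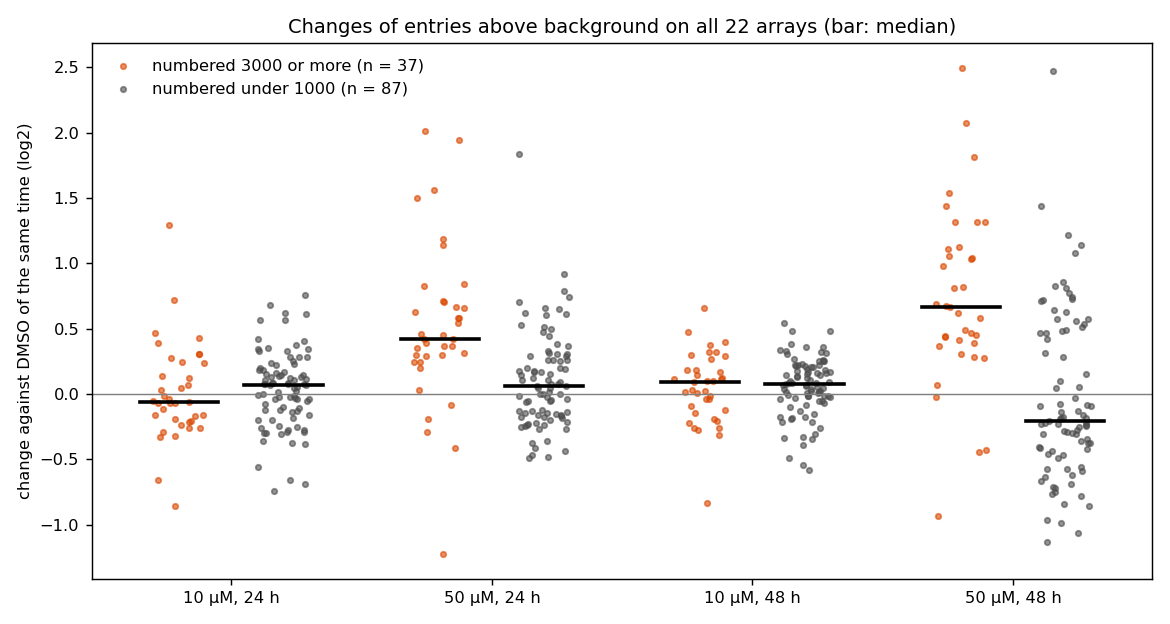
Log2 change against DMSO of the same time at each dose, for the 37 members (orange) and the 87 low-numbered entries (grey) well above background on all 22 arrays, 1 point per entry with the median as a bar. At 50 µM the members' medians are 0.42 at 24 h and 0.67 at 48 h, against 0.06 and -0.21 for the low-numbered entries.

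miR-5622-3p changed most. It stood at 2.46, 1.95 and 2.09 on the 3 arrays at 50 µM and 48 h, against -0.74 to 0.75 in DMSO at 48 h (median -0.54). The groups did not overlap, as was so in this direction for 22 of the 88 members and for 55 of the 349 entries (15.8%). The log2 change was 2.50 (SE 0.28, 5.65-fold, adjusted p = 3.48e-06, limma). Under the file names it was 1.23 (SE 0.55).

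miR-5121, the entry that overlaps Snord33, was at 0.13, -0.31 and -0.16 at 50 µM and 48 h and at -2.74 to -0.66 in DMSO (median -2.49). All 3 treated arrays were above all 6 controls. Its change was 2.08 (SE 0.54, 4.22-fold, adjusted p = 0.00706, limma), and 0.59 (SE 0.71) under the file names.

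All 3 miR-3473 forms had higher values, and 2 of them were called. miR-3473b reached 1.82, 2.08 and 2.32 at 50 µM and 48 h, from -0.20 to 1.24 in DMSO (median 0.08), a change of 1.82 (SE 0.32, 3.52-fold, adjusted p = 0.000324, limma). miR-3473a reached -0.95, -0.72 and -0.43, from -2.70 to -1.27 in DMSO (median -2.40), a change of 1.54 (SE 0.30, adjusted p = 0.000899, limma). Neither overlapped its controls. miR-3473e, which differs from miR-3473b only after the shared 18 bases, was at -2.59, -2.85 and -2.54 and overlapped its controls (-4.44 to -2.02, median -3.71), and its change of 0.93 (SE 0.37) missed the threshold (adjusted p = 0.0706, limma). miR-5128, with the 9-base run, changed by 1.31 (SE 0.45, adjusted p = 0.0311, limma) and overlapped its controls, since DMSO replicate 6 was at 0.07.

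Of the 4 miR-3102 forms, 1 was called. miR-3102-3p was at -2.56, -2.83 and -2.71 at 50 µM and 48 h and at the floor on 5 of 6 DMSO arrays, the other being replicate 6 at -4.01. Its change on the floored scale was 1.67 (SE 0.21, adjusted p = 9.93e-06, limma), and 2.33 with the floor halved (adjusted p = 8.24e-05). With tied controls, size and SE both rest on the floor. miR-3102-5p, the bright form of the hairpin, was at 0.70, 0.31 and 0.07 against 0.23 to 1.03 in DMSO (median 0.91), a change of -0.43 (SE 0.25) that did not pass (adjusted p = 0.187, limma). The inner forms miR-3102-5p.2-5p and miR-3102-3p.2-3p changed by 0.44 (SE 0.32) and 0.15 (SE 0.08), also without passing. The difference between these forms was not tested.

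Both arms of miR-5132 rose. The 5p arm was at -2.75, -2.53 and -2.54 and at the floor on 5 of 6 DMSO arrays, with replicate 6 at -3.16, and changed by 1.62 on the floored scale (SE 0.26, adjusted p = 0.000117, limma). The 3p arm was at -3.52, -3.35 and -2.91 and at the floor, not well above background, on all 6 DMSO arrays. It was at least 2.08-fold higher, taking for DMSO the lowest signal that counted as well above background on each array (adjusted p = 4.08e-09, limma). This arm was at the floor on every array outside 50 µM and 48 h. Its SE and p therefore rest on tied values, and its low p does not rank it above other members. Of the miR-3096b arms, the dim 5p arm rose 2.29-fold (log2 SE 0.18, adjusted p = 7.26e-05, limma), and the bright 3p arm changed by 0.62 (SE 0.29) and did not pass (adjusted p = 0.111, limma). miR-3096a-5p changed by 0.44 (SE 0.32), also without passing. miR-3070b-3p rose by 0.78 (SE 0.25), while miR-3070a-3p lay at the floor in both groups. Both arms of miR-3085 were at or near the floor, and of the miR-3058 arms the 3p arm alone was called, for a change of 0.08.

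The rest of the 10 largest changes came from miR-6391 (1.49, SE 0.20), miR-6401 (1.43, SE 0.36), miR-3470a (1.34, SE 0.23) and miR-6360 (1.32, SE 0.29), with adjusted p from 2.56e-05 to 0.00489 in limma. miR-6391 was at -2.99, -2.73 and -2.54 against -4.44 to -3.46 in DMSO. miR-6401 was at -1.59, -1.19 and -1.08 and reached into its control range, whose top was DMSO replicate 6 at -1.51. miR-3470a, at -2.31, -2.42 and -2.54 against -4.12 to -3.18, and miR-6360, at -0.38, -0.18 and 0.07 against -1.96 to -0.44, did not overlap their controls. Under the file names these 4 changed by 0.69 (SE 0.32), 0.77 (SE 0.45), 0.32 (SE 0.38) and 0.52 (SE 0.38). The smallest called changes, under 0.25, were those of miR-5120, miR-3572-5p, miR-3113-5p and miR-3058-3p, all of them close to the floor.

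**Figure D4:**
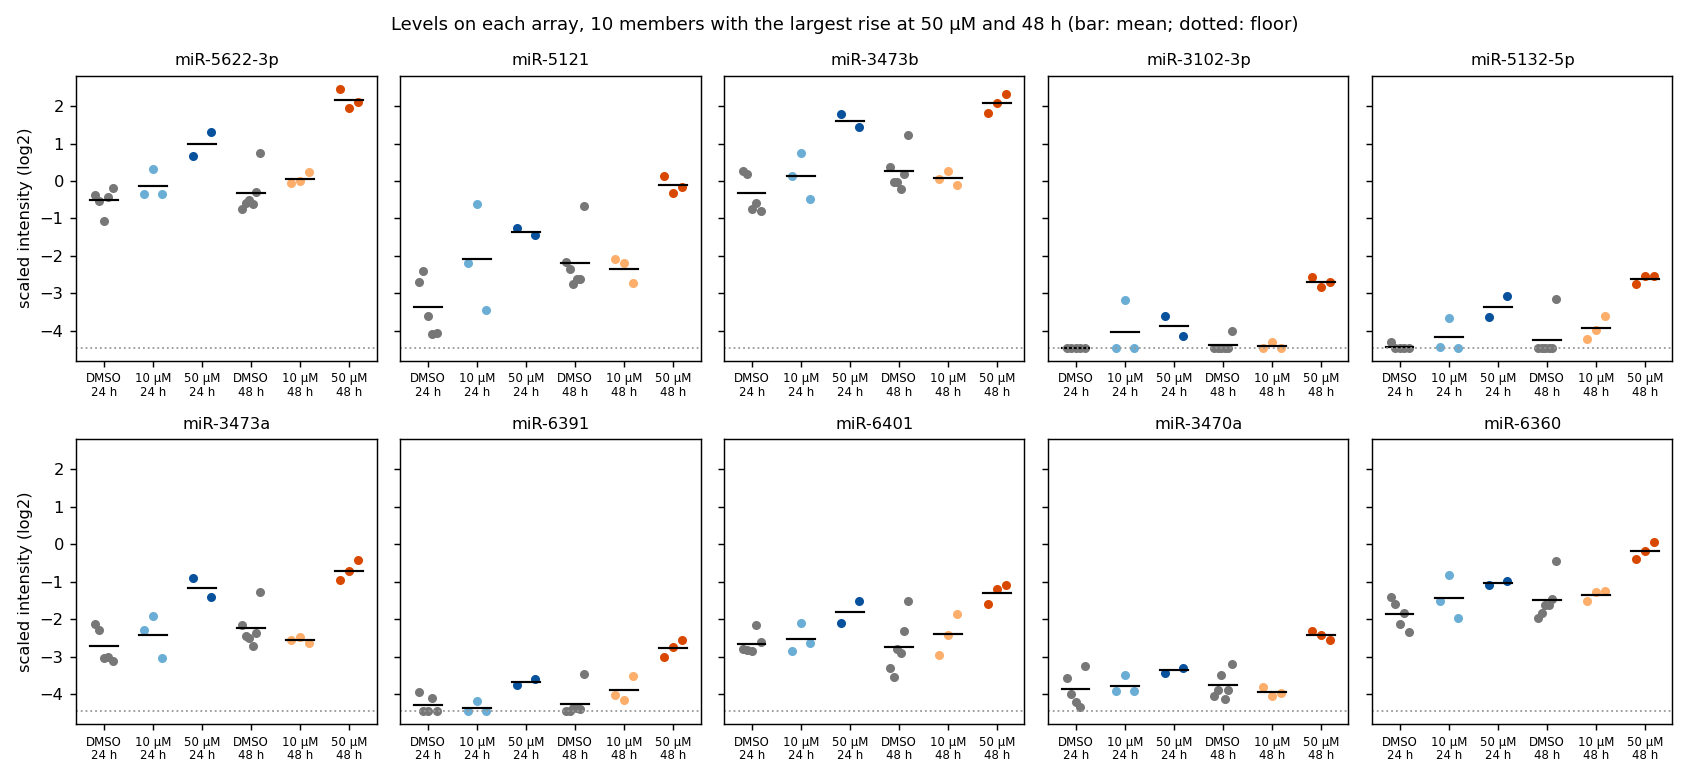
Log2 scaled level on each of the 22 arrays, by treatment group, of the 10 members with the largest rise at 50 µM and 48 h; bars are group means and the dotted line is the floor at -4.44. The 3 arrays at 50 µM and 48 h lie above all DMSO arrays of that time for 9 of the 10, and 1 DMSO array at 48 h, replicate 6, is the highest control.

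Bright members were among those that did not pass at 50 µM and 48 h. Among members detected on all 22 arrays the smallest changes were in miR-5117-3p (-0.02, SE 0.32), miR-6368 (0.07, SE 0.31) and miR-6394 (0.28, SE 0.47). miR-3960, the brightest, was at 3.00, 2.74 and 3.11 against 2.20 to 3.38 in DMSO, a change of 0.41 (SE 0.34, adjusted p = 0.382, limma). The lowest value belonged to miR-3968, at 0.95, 0.41 and 0.32 against 0.51 to 2.71 in DMSO, a change of -0.93 (SE 0.55, adjusted p = 0.191, limma).

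Values of the arrays moved beside these results. All 3 arrays at 50 µM and 48 h were on slide 1, with 1 DMSO array of that time. Within that slide the 88 members differed from that array by a median of 0.34 and the low-numbered entries by 0.00, over arrays that are also in the main comparison and with a control of 1 array. With slide as a block 26 members were called. Of the 3 arrays, replicate 3 had the highest 75th percentile of all (604 signal units, where the others spanned 181 to 373) and the most detected entries, 400, and without it 26 members were called. Summed markers of leukocytes, endothelium and mesenchymal cells held at most 0.0239%, 0.0602% and 0.0293% of the signal of any array, and those of bile duct and erythroid cells at most 0.0014% and 0.00061%. Summed hepatocyte markers held 7.41% to 7.96% of the signal at 50 µM and 48 h and 7.98% to 13.3% in DMSO at 48 h. Their part in the rises was not tested, and in bulk RNA a change in the mix of cells cannot be told apart from a change per cell. DMSO replicate 6 at 48 h was the highest of the 6 controls for 31 of the 35 called members and 59 of all 88, and without it 47 members were called higher and 1 lower.

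At 50 µM and 24 h, 5 members were higher than in DMSO and 0 lower (limma, adjusted p under 0.05), where 3.15% of all entries were called, all of them higher. All 5 were also among the 35 called at 48 h. miR-3473b was at 1.78 and 1.44 on the 2 treated arrays and at 0.26, 0.19, -0.74, -0.59 and -0.79 in DMSO, a change of 1.94 (SE 0.38, adjusted p = 0.0110). miR-3473a was 2.96-fold higher (log2 SE 0.36), miR-5622-3p 2.84-fold (0.33) and miR-5119 2.18-fold (0.25), with adjusted p from 0.0147 to 0.0164 in limma. miR-5116 was at -3.96 and -3.87 and at the floor in all 5 controls, at least 1.35-fold higher (adjusted p = 0.00373, limma). Its p rests on tied controls and does not rank it above the others. None of the 5 overlapped its controls. In all, 24 members lay above every control, as did 12.3% of all entries. Among members well above background on all 22 arrays 3 of 37 were called, against 5.03% of the 159 such entries.

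These calls rest on 2 arrays. Without replicate 2, 1 member was called. Without replicate 3, whose negative controls averaged 215 signal units where those of every other array averaged at most 33.7, 0 members were called. Under the file names the count was also 0, and with both doses pooled 0. The 35 members called at 48 h, a list taken from these same data, had a median change of 0.56 at 24 h, with 30 positive values. The median at 24 h was 0.24 over all 88 members and 0.03 over all entries. The 2 comparisons share no array, but they share experiment numbers and 1 estimate of the spread, so they are not independent.

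At 10 µM no member passed at either time (limma, 0 of 88 at 24 h and 0 of 88 at 48 h). At an unadjusted p under 0.05 there were 3 at 24 h, 2 of them higher, and 2 at 48 h, both higher. At the adjusted threshold 0% of all entries were called at 24 h and 0.86% at 48 h. The unadjusted counts have no such share over all entries beside them and are a description only. The lowest p at 24 h belonged to miR-6402 (-1.15, SE 0.40), miR-3096b-3p (0.72, SE 0.30) and miR-5121 (1.29, SE 0.56), each with an adjusted p of 0.856. miR-5121 was at -2.18, -0.60 and -3.43 on the 3 arrays at 10 µM, against -4.09 to -2.40 in DMSO, so replicates 1 and 2 lay above the controls and replicate 3 among them. Replicates 2 and 3 are both filed as 50 µM. Replicate 2 was the highest of its group for 26 of the 35 members called at 48 h and for 42 of all 88. At 48 h the lowest p belonged to miR-3065-3p (0.09, SE 0.04), miR-3096b-3p (0.65, SE 0.29) and miR-3473e (-0.72, SE 0.37), with adjusted p from 0.835 to 1 in limma. miR-3065-3p was at the floor on every array except replicate 3 at 10 µM and 48 h (-4.16), so its change rests on that array and tied values. The 35 members called at 50 µM and 48 h had a median change of 0.00 at 10 µM and 48 h, 15 of them positive. That list was taken from comparisons with the same DMSO arrays, and the median over all 88 members was also 0.00.

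The 2 doses were also compared with each other. At 48 h, 28 members were higher at 50 µM than at 10 µM and 0 lower (limma, adjusted p under 0.05), where 18.6% of all entries were higher and 5.16% lower. Among low-numbered entries 20 were higher and 18 lower. The largest differences were 4.66-fold in miR-5121, 4.43-fold in miR-5128, 4.30-fold in miR-5622-3p, 4.01-fold in miR-3473b and 3.61-fold in miR-3473a, with log2 SE of 0.63, 0.52, 0.33, 0.37 and 0.35. miR-3473e, at -4.30, -4.44 and -4.15 at 10 µM, differed by 1.64 (SE 0.43, adjusted p = 0.0106, limma) and was the only one of the 28 not called against DMSO. miR-3102-3p, not well above background on any array at 10 µM, was at least 2.63-fold higher. The next in size were miR-3470a (1.51, SE 0.26), miR-5130 (1.37, SE 0.30) and miR-5132-5p (1.32, SE 0.30). This comparison uses the same 3 arrays as the comparison of 50 µM with DMSO, so the shared calls are not independent. Under the file names 0 members were called and the 10 largest differences took the opposite sign, from -0.82 to -0.35.

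At 24 h, 1 member differed between the doses, miR-5116 (0.53, SE 0.10, adjusted p = 0.00986, limma), at -3.96 and -3.87 at 50 µM and at the floor on all 3 arrays at 10 µM. Of all entries 0.573% were called. With tied values at 10 µM, size, SE and p rest on the floor. The call was lost with the floor halved and without either array at 50 µM.

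Culture time alone moved no member past the adjusted threshold in DMSO (limma, 0 of 88), where 0.287% of all entries were called. At an unadjusted p under 0.05 in limma there were 7 members, 5 of them higher. No unadjusted share over all entries stands beside that count, so it is a description only. Without DMSO replicate 1 at 24 h, 1 member was called. The lowest p belonged to miR-3096b-3p (0.75, SE 0.25) and miR-3096a-5p (0.82, SE 0.27), each with an adjusted p of 0.181, and miR-5121 (1.17, SE 0.47, adjusted p = 0.293). miR-3096b-3p was at -0.38, -0.79, -1.21, -1.59 and -1.95 in DMSO at 24 h and at -0.92 to 0.18 at 48 h, so the groups overlapped.

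Whether the change at 50 µM differed between the times was tested as an interaction. It passed for 3 of 88 members (3.4%; limma, adjusted p under 0.05), all larger at 48 h, where 4.3% of all entries passed. miR-5132-3p was at the floor on both arrays at 50 µM and 24 h, and its change was larger at 48 h by 1.18 (SE 0.12, adjusted p = 2.90e-06). miR-3572-5p and miR-3058-3p differed by 0.19 and 0.08. For all 3 members every array outside 50 µM and 48 h was at the floor. Their change at 50 µM and 24 h was thus fixed at 0 on this scale, and SE and p rest on tied values. miR-5622-3p had a larger value at 48 h by 0.99 (SE 0.44), which did not pass (adjusted p = 0.338, limma). Without DMSO replicate 6 at 48 h 9 members passed, without 50 µM replicate 1 at 48 h 7, and under the file names 0.

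The correlation of GC content with the change at 50 µM and 48 h had opposite signs in the classes. Across the 28 matched members well above background on all 22 arrays, Pearson's correlation was -0.40 and Spearman's -0.54; across the 72 matched low-numbered entries they were 0.51 and 0.45. These are descriptions across entries that share the same arrays, and entries are not independent replicates. Members with a GC content of at least 60% had a median change of 0.51 (n = 16) and those below it 1.04 (n = 12), while low-numbered entries had 0.48 (n = 14) and -0.30 (n = 58). The classes thus lay close together at high GC content and apart at low GC content, and the difference between the classes was not tested.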

How the data were processed

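Array files hold intensity values that Feature Extraction 10.7.3.1 background-corrected, per the file headers. The deposited value table holds log2 values, and the submitters' processing notes name R 2.15.2. It was rebuilt here by a minimum of 0.5 on the total gene signal, quantile normalisation and log2. The members, lists and tests were chosen with earlier results of these data known.

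For each probe, spots without outlier marks were averaged. The mean was scaled to the 75th percentile of 284 probes that were well above background everywhere (181 to 604 signal units), floored at 0.0459 and put on the log2 scale, and the brightest probe stood for its entry. A probe counted as well above background where the share of its spots with that mark reached 0.5. The scripts were tested on simulated data.

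Entries detected on at least 3 arrays went into 1 limma 3.58.1 fit (R 4.3.3) over the 6 groups, with Benjamini-Hochberg adjustment over 349 entries and a threshold of 0.05. P-values measure the spread between these arrays, whose number limits the precision. No spot was saturated (0). Values are named for the 10 brightest members, up to 10 called per comparison and direction (the 3 of lowest p where none was called), those called in several CsA comparisons or in the interaction, those sharing a number, those next to the detection rule and the 3 smallest changes. Alternatives covered signal, scaling, background, filter, floor, call rule, slide, experiment, naming, pooled doses, matched controls and each array left out. Probe sequences were not used.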

Additional observations from a re-analysis of the deposited data

Results flagged for a closer look

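DMSO replicate 6 at 48 h stood apart as the highest of the 6 DMSO arrays of that time for 12 members. For miR-5116, miR-3102-3p, miR-5132-5p, miR-3070b-3p and miR-3085-5p the other 5 were all at the floor of -4.44, so any value above it stands apart. Its log2 levels were -0.66 for miR-5121, 0.75 for miR-5622-3p, -2.59 for miR-5119, -4.29 for miR-5116, -4.01 for miR-3102-3p and -3.16 for miR-5132-5p. They were -3.46 for miR-6391, -0.44 for miR-6360, -2.88 for miR-5130, -3.69 for miR-3070b-3p, -4.19 for miR-3085-5p and -3.49 for miR-3096b-5p. The same array had 81 members detected, where the other 5 had at most 60.

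In DMSO at 24 h, replicate 1 lay above the others for miR-5132-5p (-4.29), miR-3058-5p (-3.64) and miR-3070b-3p (-3.93), and replicate 6 for miR-3102-3p.2-3p (-4.14), with every other array at the floor. Gaps were judged by Dixon's 95% limit, which chance passes in about 1 of 20 groups without ties. Of 67 tests 17 passed, but in 9 of them all other arrays were tied at the floor and the limit has no such meaning, which leaves 8.

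An interaction test in limma called the change at 50 µM larger at 48 h than at 24 h for miR-5132-3p (1.18), miR-3572-5p (0.19) and miR-3058-3p (0.085). All 3 were at the floor on every array outside 50 µM and 48 h, so these calls rest on tied values. The call for miR-5132-3p was kept in 26 alternatives and lost in 2, normexp and file names. The calls for miR-3572-5p and miR-3058-3p were each kept in 20 and lost in 8, the total gene signal and quantile normalisation among them.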

How the results depend on the processing

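Members called at 50 µM and 24 h numbered 3 with the total gene signal, 2 in the authors' value table, 1 with no filter, and 0 under file names, pooled doses or controls of the same dose tag. At 10 µM and 48 h, 5 were called under file names. At 50 µM and 48 h there were 21 with scaling over all probes and 0 under file names or pooled doses. For the doses at 24 h the count was 0 with the total gene signal, normexp, the value table, a halved floor, file names or a 1.5-fold limit. At 48 h it was 16 over all probes, 18 in the value table and 0 under file names. For DMSO over time it was 1 with the replicate block. For the interaction it was 1 with the total gene signal, all probes, the value table, floor entries left out or a 1.5-fold limit, 0 with normexp, a filter at background or file names, and 5 with the replicate block. At 50 µM and 48 h the replicate block on experiment number gave 41 calls. The labels do not say what that number shares: over 40 same-number pairs the correlation ran from -0.21 to 0.78 (median 0.25, 29 over 0.1), and over 80 other pairs its median was -0.15 (19 over 0.1).

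Leaving out each array gave 0 to 0 and 0 to 6 calls for 10 and 50 µM at 24 h, 0 to 0 and 26 to 48 at 48 h, 0 to 1 and 19 to 30 between the doses, 0 to 1 for DMSO over time and 3 to 9 for the interaction. The total gene signal moved the median change of all entries at 50 µM and 48 h to 0.28.

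Under file names the difference between doses reversed for miR-5116 at 24 h (-0.35) and, at 48 h, for miR-5121 (-0.74), miR-5128 (-0.66), miR-5622-3p (-0.43), miR-3473b (-0.82), miR-3473a (-0.79), miR-3102-3p (-0.44), miR-3473e (-0.50), miR-3470a (-0.52), miR-5130 (-0.47) and miR-5132-5p (-0.35), since most CsA arrays change dose there. The cause of the other moves was not tested. Of 642 recomputed changes of named called members, 545 kept direction and call, 86 lost the call and 11 reversed. Members at the floor in a group have only a bound there, and signal over background limits their folds.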
